A study of Mus musculus with 4 samples.

Results

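The genes described here are the 38 voltage-gated potassium channel genes of 20211 gene symbols listed in all 4 libraries of a single-nucleus RNA series of mouse hippocampus. They were chosen by symbol alone, as those starting with Kcn, followed by a, b, c, d, f, g, h, q, s or v and a number, and no measured value entered the choice. Each of the 4 libraries stands for 1 genotype. These are Wild type, Total/global MAGL-KO, Astrocyte specific MAGL-KO and Neuron specific MAGL-KO, called below wild type and the total, astrocyte and neuron knockouts. MAGL, encoded by Mgll, is the main lipase that degrades the endocannabinoid 2-arachidonoylglycerol. The series title asks what surplus endocannabinoids in neurons do to cognition. The labels give no strain, age, sex, number of animals, deleted exon or Cre driver. With 1 library per genotype no spread between animals can be estimated, so no test was made, and intervals cover counting error only.

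Voltage-gated potassium channels open when a neuron is depolarised and carry potassium out of the cell, which ends the action potential and sets how soon the next can follow. The pore is built of 4 alpha subunits, and the genes fall into families by sequence and role. Kcna (Kv1) genes encode mostly axonal delayed rectifiers, and Kcnb (Kv2) genes the delayed rectifiers of soma and proximal dendrite. Kcnc (Kv3) channels open and close fast and allow high firing rates, and Kcnd (Kv4) channels carry the transient A-type current of dendrites. Kcnf, Kcng, Kcnv and Kcns genes encode silent subunits, which form no channel of their own and modify Kv2 channels. Kcnh genes encode the EAG, ERG and ELK channels, and Kcnq (Kv7) genes the slow, non-inactivating M current that muscarinic receptors suppress.

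Levels are given as CPM, the UMIs (unique transcript molecules) of a gene when the UMIs of a class are scaled to 1000000, for each class of nuclei in a library, in the order wild type, total, astrocyte and neuron knockout wherever 4 values follow each other. Classes are groups of clusters named from marker genes, and potassium channel genes and their partners took no part in the clustering. A name means that the nuclei resemble that type on its markers. Genes with a longer span held more UMIs (Spearman rho of 0.619 between gene span and UMIs in neurons, over the 38 genes, which share libraries). Levels are therefore compared within a gene across classes and never between genes.

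The libraries differed before any comparison of channels. They held between 8945 and 31243 barcodes and between 81623644 and 193307038 UMIs, and the total knockout was the largest in barcodes and the lowest in median UMIs per barcode (5456, against 7448 to 8904 in the other libraries). Doublets were called in 23.5% of its barcodes, against 1.72% to 5.68% elsewhere. It held 3 nuclei called female by sex-linked UMIs among 23625, whereas 41.0% to 47.0% were called female in the other libraries. It also held 738 of 770 nuclei named medium spiny neurons and 152 of 174 named thalamic, types outside the hippocampus proper. Libraries shared between 108 and 466 cell barcodes by pair, from 1.21% to 4.63% of the smaller library. The targeted gene Mgll stood at 105, 84.5, 108 and 108 CPM in excitatory neurons, at 93.8, 98.9, 104 and 96.6 CPM in inhibitory neurons and at 375, 281, 224 and 453 CPM in astrocytes. The astrocyte knockout value in astrocytes rests on 37 UMIs of 32 nuclei, in which the 10 astrocyte markers summed to 12773 CPM, against 18936 to 22368 CPM in the other libraries, and the 8 excitatory markers to 885 CPM, against 291 to 503 CPM. The part of this difference in the Mgll level was not tested. In the library labelled neuron knockout its level in neurons was thus not below wild type. The labels do not name the deleted part of Mgll, so these UMIs cannot check the label.

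The sequence before the start of 4 genes with different cell type patterns is shown, so that their promoters can be set beside the levels below. Each is the 250 bases before the start that RefSeq annotates (GRCm38.p6, the build called mm10 in the submitters' processing notes), read 5′ to 3′ on the gene's strand. Capitals mark every GC box (GGGCGG on either strand), the motif bound by Sp1-type factors. Kcnc1 is the gene high in parvalbumin neurons, Kcnc4 the gene high in dentate granule neurons, Kcnh7 the gene high in CA1 and low in CA2/CA3, and Kcnq5 the gene with the opposite pattern.

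Kcnc1 (chr7:46396218-46396467, plus strand): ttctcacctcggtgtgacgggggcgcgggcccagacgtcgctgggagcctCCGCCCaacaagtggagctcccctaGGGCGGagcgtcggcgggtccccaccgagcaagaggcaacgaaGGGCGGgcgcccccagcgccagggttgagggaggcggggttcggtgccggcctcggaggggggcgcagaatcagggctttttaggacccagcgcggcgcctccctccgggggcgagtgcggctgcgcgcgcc

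Kcnc4 (chr3:107458899-107459148, minus strand): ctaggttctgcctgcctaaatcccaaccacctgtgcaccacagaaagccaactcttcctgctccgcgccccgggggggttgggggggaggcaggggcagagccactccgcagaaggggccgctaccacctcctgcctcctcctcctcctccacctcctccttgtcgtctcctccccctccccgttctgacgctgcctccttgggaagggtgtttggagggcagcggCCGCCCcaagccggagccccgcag

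Kcnh7 (chr2:63184288-63184537, minus strand): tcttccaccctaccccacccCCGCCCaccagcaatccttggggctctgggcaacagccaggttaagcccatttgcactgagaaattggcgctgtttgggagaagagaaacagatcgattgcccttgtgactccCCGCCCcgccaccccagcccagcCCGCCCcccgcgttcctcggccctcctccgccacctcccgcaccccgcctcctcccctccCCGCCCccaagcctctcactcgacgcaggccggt

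Kcnq5 (chr1:21961943-21962192, minus strand): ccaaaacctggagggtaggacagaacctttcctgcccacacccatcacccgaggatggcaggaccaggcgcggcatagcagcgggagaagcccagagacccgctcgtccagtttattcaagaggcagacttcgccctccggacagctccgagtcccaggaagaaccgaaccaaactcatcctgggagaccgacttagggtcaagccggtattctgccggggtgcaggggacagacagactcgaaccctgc

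The annotations differ on the start of Kcnc4. Its window lies before the RefSeq start but inside the gene as GENCODE draws it, whose start is further upstream. GC boxes numbered 3 in the Kcnc1 window, 1 in that of Kcnc4, 4 in that of Kcnh7 and 0 in that of Kcnq5. G and C made up 74.4%, 68.0%, 67.6% and 60.8% of these windows. RefSeq starts were at hand for 25 of the 38 genes, as 30 windows. A GC box lay in 17 of the 30 windows (56.7%), against 32.7% of the 32851 windows of all genes. The TATA box letters TATAAA and the cyclic AMP response element TGACGTCA, on either strand, were in 0 of the 30 windows and in 12.4% and 1.55% of all windows. The left arm of the repressor element 1, TTCAGCACC, was in 1 window, that of Kcnh6, and in 0.301% of all windows. A match is a run of letters, not a bound site, and a window without one says nothing of the factor.

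Most of these genes, like most genes of the series, reached 100 UMIs in neurons, and most had 1 class that stood above the next. Of the 38 genes, 36 held at least 100 UMIs in excitatory and inhibitory neurons together, as did 17430 of all 20211 genes. Kcna5, with 63 UMIs, and Kcnv2, with 88, did not. Over the 8 neuron classes with at least 50 nuclei in each library, 22 of those 36 genes (61.1%) had a highest class whose lowest library lay above every library of the class with the next median. The same held for 25.6% of the 17430 genes with as many UMIs. The highest class was dentate granule or parvalbumin neurons for 7 genes each, CCK inhibitory neurons for 6, subicular or cortical excitatory neurons for 5, CA1 for 4, CA2/CA3 for 3, and somatostatin and Vip neurons for 2 each. The map of levels by class shows these peaks, with at least 1 gene at its highest in each column.

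**Figure D1:**
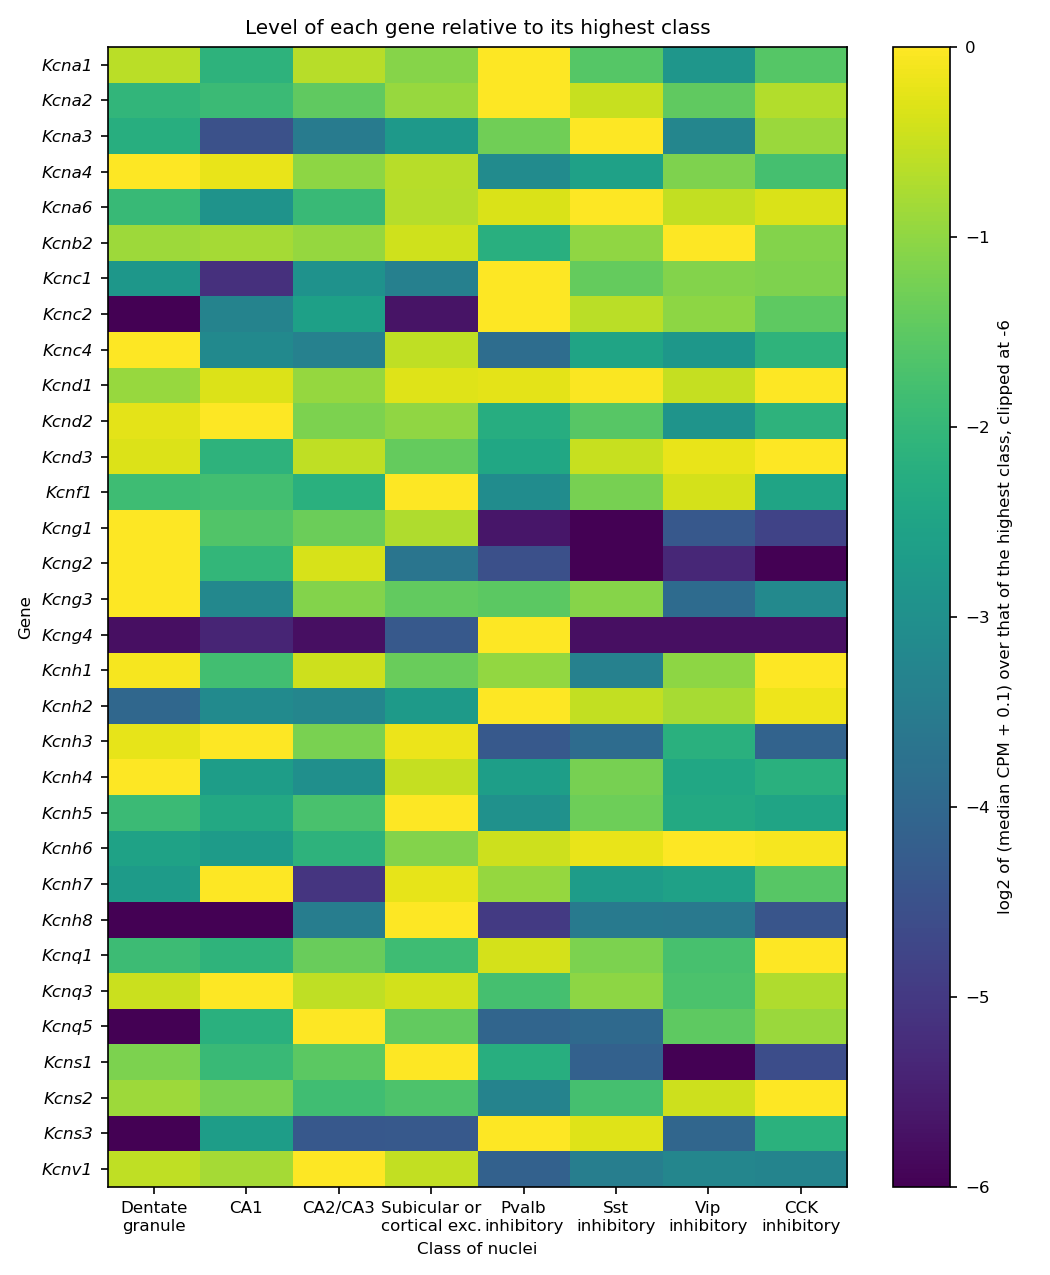
Each row is 1 of 32 of the genes with at least 100 UMIs in neurons and each column 1 of 8 neuron classes; colour is log2 of the median CPM plus 0.1 over the 4 libraries, relative to the gene's highest class (yellow, 0). Kcnc1 and Kcnc2 are highest in parvalbumin (Pvalb) neurons, Kcnc4 in dentate granule neurons, and Kcnq5 spans the full scale from CA2/CA3 to dentate granule neurons.

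The Kv1 genes of the axon were highest in inhibitory classes, except Kcna4. Kcna1, the classic low-threshold axonal channel gene (chr6:126640397-126646384, minus strand), stood at 130.3, 115, 145 and 129 CPM in parvalbumin neurons and at 83.1, 84.5, 84.8 and 81.1 CPM in dentate granule neurons, the next class. In Vip neurons, its lowest class, Kcna1 stood at 15.6 to 20.0 CPM. Kcna2, its frequent partner in the same tetramers, was also highest in parvalbumin neurons (69.1 to 82.3 CPM) and lowest in dentate granule neurons (14.2 to 19.5 CPM), so this pair shared a peak and differed at the low end. Kcna6 was highest in somatostatin neurons (50.3 to 54.3 CPM), and lowest in CA1 (5.79 to 8.27 CPM). Kcna3 stood at 0.252 to 0.298 CPM in excitatory neurons and at 2.21 to 3.37 CPM in somatostatin neurons. Kcna4, the inactivating member that gives an axonal A-type current, ran the other way, with 42.3 to 50.1 CPM in dentate granule neurons, 38.4 to 43.6 in CA1, whose libraries overlap those, and 4.78 to 6.39 in parvalbumin neurons. Kcna5 stayed at or below 1.06 CPM in each library of the 8 classes.

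Of the Kv2 family, the somatic delayed rectifiers, Kcnb2 was found in every class. Kcnb2 was highest in Vip neurons (1593, 1591, 1457 and 1385 CPM) and lowest in parvalbumin neurons (348, 359, 304 and 298 CPM). Its lowest level was thus in the class in which Kcnc1 and Kcnc2 had their highest.

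The Kv3 genes divided between fast-spiking interneurons and granule cells. Kcnc1 (chr7:46396497-46438704, plus strand) stood at 488, 432, 570.3 and 494 CPM in parvalbumin neurons, against 174 to 192 CPM in somatostatin, 211 to 238 in Vip and 212 to 224 in CCK neurons, of which Vip and CCK overlapped. CA1 was lowest, at 12.5, 17.1, 13.8 and 13.2 CPM. Kcnc2 (chr10:112271121-112467024, plus strand) stood at 4848, 5006, 4705 and 4522 CPM in parvalbumin neurons, 3135, 3087, 3619 and 3032 in somatostatin neurons and 6.14, 7.60, 14.2 and 9.83 in dentate granule neurons, with no overlap between these 3 classes. Kcnc4, which gives an inactivating Kv3 current (chr3:107438303-107459552, minus strand), peaked in dentate granule neurons, and parvalbumin neurons were its lowest class (2.52 to 4.78 CPM). Dentate granule neurons thus held the highest Kcnc4 level and the lowest Kcnc2 level of the 8 classes.

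The Kv4 genes, which carry the dendritic A-type current, had different orders of classes. Kcnd2 (chr6:21215503-21729805, plus strand), the gene with most UMIs of the 38 in dentate granule, CA1 and subicular or cortical neurons, stood at 5774, 5619, 5460.0 and 5861 CPM in CA1 and 4841, 5009, 4652 and 4773 CPM in dentate granule neurons. Its level was 2791, 2818, 2875 and 2942 CPM in subicular or cortical neurons, 2497, 2504, 2586 and 2500.1 in CA2/CA3 and 2086, 2318, 1722 and 1756 in somatostatin neurons. Vip neurons were lowest, at 658 to 986 CPM. Kcnd3 was highest in CCK (462 to 576 CPM) and Vip neurons (406 to 470.1 CPM), which overlapped, and lowest in parvalbumin (89.7 to 111 CPM) and CA1 neurons (104 to 147 CPM). Kcnd1, which shares the A-type family but is sparse here, ranged from 2.56 to 9.57 CPM over the 8 classes, and 6 of the 8 classes had medians between 4.19 and 6.13 CPM. An antisense gene, Kcnd3os, overlaps Kcnd3, and the sources used here do not say whether reads were assigned by strand.

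Several of the silent subunits also differed sharply between classes. Kcng1 stood at 33.7, 40.3, 41.5 and 42.6 CPM in dentate granule neurons and at 0 to 0.664 CPM in somatostatin neurons. Kcng2 stood at 67.0, 61.6, 61.8 and 58.2 CPM in dentate granule neurons, 43.8 to 50.0 in CA2/CA3 and 4.54 to 5.04 in subicular or cortical neurons. Kcng3 was also highest in dentate granule neurons, so 3 of the 4 Kcng genes peaked there. Kcng4 was the exception, with 5.51, 3.87, 7.55 and 5.04 CPM in parvalbumin neurons from 19, 20, 23 and 19 UMIs, and 0 UMIs in each library of dentate granule and Vip neurons. A count of 0 allows up to 0.148 to 0.222 CPM in the first, by library, and 1.33 to 5.19 CPM in the second. Kcnf1 and Kcns1 were highest in subicular or cortical neurons (18.6 to 19.4 and 5.57 to 7.15 CPM). Kcns2 peaked in CCK neurons (14.7 to 17.4 CPM). Kcns3 was high in parvalbumin (123, 99.4, 148 and 115 CPM) and somatostatin neurons (91.4, 76.8, 109 and 104 CPM), which overlapped. Kcnv1 was an excitatory gene, at 22.4 to 25.9 CPM in CA2/CA3 and 0.581 to 1.64 CPM in parvalbumin neurons. Kcnv2 stayed at or below 0.494 CPM in each library of the 8 classes.

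Among the EAG channels, Kcnh1 was highest in CCK (172 to 249 CPM) and dentate granule neurons (213 to 236 CPM), which overlapped, and lowest in somatostatin neurons (18.0 to 25.9 CPM). Kcnh5 was highest in subicular or cortical neurons (113 to 142 CPM) and lowest in parvalbumin neurons (14.8 to 18.3 CPM). The ERG genes, whose channels recover fast from inactivation and damp repeated firing, did not share a pattern. Kcnh2 was higher in inhibitory than in excitatory neurons, at 10.2 to 16.5 CPM in parvalbumin and 0.608 to 1.19 CPM in dentate granule neurons. Kcnh6 was sparse, and stood at 2.20 to 3.90 CPM in inhibitory and 0.878 to 1.25 CPM in excitatory neurons. Kcnh7 (chr2:62693414-63184287, minus strand) stood at 2503, 2358, 2051 and 2635 CPM in CA1 and 2039, 2129.6, 2074 and 2108 CPM in subicular or cortical neurons, which overlapped, and at 73.7, 75.0, 58.3 and 70.2 CPM in CA2/CA3. Kcnh7 levels in parvalbumin neurons (1386, 1362, 1068 and 1175 CPM) lay between these. The antisense genes Gca and Gm13569 overlap Kcnh7, and Mcrs1 overlaps Kcnh3. The ELK genes differed in which classes held them. Kcnh3 stood at 35.2 to 42.2 CPM in CA1 and 1.33 to 2.91 in parvalbumin neurons. Kcnh4 stood at 5.53 to 9.02 CPM in dentate granule neurons, and at 4.26 to 6.08 CPM in subicular or cortical neurons, while CA2/CA3 was its lowest class (0.653 to 1.00 CPM). Kcnh8 was highest in subicular or cortical neurons, with 55.4, 43.4, 81.9 and 72.1 CPM, and at or below 0.701 CPM in each library of dentate granule and CA1 neurons. It led the leading genes of 1 cluster of that class (1330 of its 10234 nuclei) and of no other, so its level need not hold for the whole class.

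The Kv7 genes of the M current peaked in different classes. Kcnq3, which contributes to the standard M channel, was highest in CA1, and stood at 1013, 1138, 1226 and 1178 CPM there. Kcnq3 was lowest in Vip (294 to 373 CPM) and parvalbumin neurons (278 to 413 CPM), and stood at 804, 831, 993 and 841 CPM in dentate granule neurons. Kcnq5 (chr1:21398403-21961942, minus strand), which can form channels with Kcnq3, stood at 4906, 5156, 5144 and 4955 CPM in CA2/CA3, 2461, 3331, 2681 and 2744 in CCK neurons and 41.8, 40.9, 63.2 and 53.8 in dentate granule neurons. Its order over the 8 classes was CA2/CA3, CCK, subicular or cortical, Vip, CA1, somatostatin, parvalbumin and dentate granule neurons. Subicular or cortical neurons (1730.2 to 2079 CPM) overlapped Vip neurons (1672 to 2028 CPM), and somatostatin neurons (291 to 353 CPM) overlapped parvalbumin neurons (265 to 387 CPM). The other neighbours were apart. Kcnq1, better known from heart and epithelia, did not exceed 7.18 CPM in any library of the 8 classes, and the antisense Kcnq1ot1 lies within it.

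**Figure D2:**
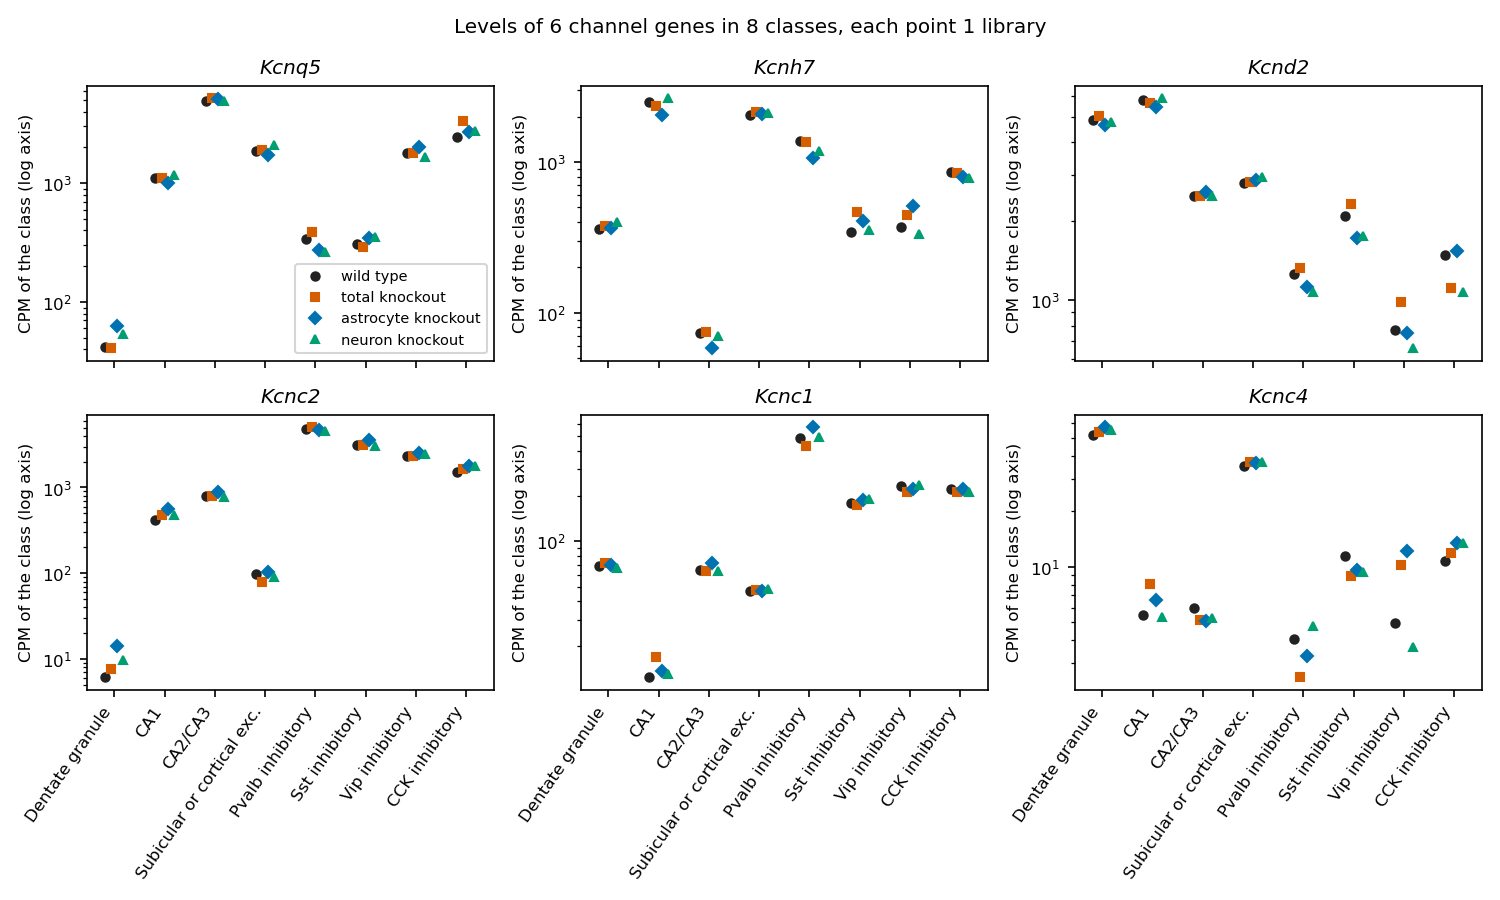
CPM (log axis) of 6 genes in 8 neuron classes, each point 1 library (colour and symbol). The 4 libraries of a class lie close together beside the widest gaps between classes. Kcnq5 in dentate granule neurons stays at 40.9 to 63.2 CPM while CA2/CA3 stays at 4906 to 5156. Kcnh7 goes from 2051 to 2635 CPM in CA1 to 58.3 to 75.0 in CA2/CA3.

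Dentate granule neurons and CA1 pyramidal neurons, the input and output stages of the hippocampal circuit, differed in many of these genes. A gene is called parted where every library of 1 class lay at least 2-fold above every library of the other, among genes with at least 100 UMIs over both. Of 32 genes with that many UMIs, 14 (43.8%) were parted, against 11.9% of all 14706 genes. Dentate granule neurons were higher for 10 (6.22% of all genes) and CA1 for 4 (5.68%). The median log2 difference was 0.20 over the 32 genes and 0.07 over all genes. The 4 with the largest gap on the dentate side were Kcnc4, Kcng3, Kcnc1 and Kcnh4. Kcnc4 stood at 51.8, 53.9, 56.8 and 54.9 CPM in dentate granule neurons and 5.46, 8.07, 6.63 and 5.34 CPM in CA1. Kcng3 stood at 34.5, 25.5, 30.2 and 30.1 and 3.59, 2.40, 4.40 and 2.79 CPM. Kcnh4, an ELK channel gene, stood at 5.53, 8.44, 8.27 and 9.02 and 0.897, 1.33, 1.15 and 1.47 CPM. Kcnc1, given above for CA1, stood at 68.2, 72.1, 69.4 and 66.3 CPM in dentate granule neurons. These 4 were picked by the gap between the nearest libraries of the classes, so the size of that gap is no separate result. The 4 higher in CA1 were Kcnc2 (a gap of -4.87 on the log2 scale between the nearest libraries), Kcnq5 (-4.00), Kcns3 (-3.75) and Kcnh7 (-2.36). Kcnc2 stood at 415, 479.5, 565 and 474 CPM in CA1 and Kcnq5 at 1109, 1109, 1013 and 1182 CPM. Kcns3, a silent partner of Kv2, stood at 17.9, 19.3, 21.5 and 16.8 CPM in CA1 and 0.182, 0.494, 1.05 and 1.18 CPM in dentate granule neurons. Kcnh7 stood at 357, 377, 365 and 401 CPM in dentate granule neurons. The other 6 parted genes were all higher in dentate granule neurons, among them Kcna1, Kcnd3, Kcng2 and Kcnh1.

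CA1 and CA2/CA3 neurons, though both pyramidal, were parted in 11 of 32 genes (34.4%), against 7.08% of all 14259 genes, with CA1 higher for 3 (3.14% of all genes) and CA2/CA3 for 8 (3.94%). The median log2 difference was -0.35 over the 32 genes and 0.00 over all genes. Kcnh7 had the largest gap, 4.77 on the log2 scale between its nearest libraries. Kcns3 stood at 4.35, 6.22, 5.33 and 6.14 CPM in CA2/CA3 and Kcnd2, the third gene higher in CA1, at the levels given above. On the other side Kcnh8 stood at 3.81, 6.86, 7.57 and 4.52 CPM in CA2/CA3 and 0.326, 0.534, 0.422 and 0.542 in CA1. Kcnc1 stood at 64.1, 63.9, 71.6 and 63.6 and Kcng3 at 13.1, 13.0, 16.0 and 14.5 CPM in CA2/CA3. Kcnq5, the M-channel gene, had a gap of -2.05. Kcna1, Kcnd3, Kcng2 and Kcnh1 completed the 8. The CA1 libraries are the same as in the comparison with dentate granule neurons. With each nucleus reduced to 1000 UMIs, 7 of 21 genes were parted (4.46% of all genes), and with nuclei gated on markers without clusters 7 of 32 (6.24%).

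Excitatory and inhibitory neurons, each pooled over its classes, were parted in 16 of 36 genes (44.4%), against 13.1% of all 17430 genes. Clusters with most markers of Lamp5 inhibitory neurons stayed unnamed and are not in the inhibitory pool. Excitatory neurons were higher for 9 (6.91% of all genes) and inhibitory neurons for 7 (6.23%), and the median log2 difference was 0.60 over the 36 genes and -0.11 over all genes. A silent subunit, Kcng1, led the excitatory side. Kcng1 stood at 21.4, 27.3, 25.1 and 23.9 CPM in excitatory and 0.843, 0.764, 0.925 and 0.762 CPM in inhibitory neurons. Kcng2 stood at 32.4, 26.5, 31.1 and 27.5 and 3.16, 1.66, 1.27 and 0.593 CPM. Kcnv1 stood at 16.2, 14.8, 15.7 and 16.1 and 2.11, 1.78, 1.85 and 2.12 CPM. Kcnh3, which encodes an ELK channel, completed the 4 largest gaps, at 31.0, 36.4, 36.7 and 36.5 and 3.16, 3.31, 2.89 and 2.63 CPM. Kcna4, Kcnc4, Kcnd2, Kcnh8 and Kcns1 were the other 5. The inhibitory side was led by Kcng4, at 2.00, 1.34, 2.66 and 1.78 CPM against 0.128, 0.0119, 0.0479 and 0.118 CPM. Kcnc2, the Kv3 gene, stood at 3366, 3347, 3496 and 3137 against 241, 231, 371 and 265 CPM. Kcns3 stood at 79.4, 64.0, 98.1 and 81.4 against 9.22, 10.1, 11.9 and 10.1 CPM. Kcnc1 stood at 306, 271, 333 and 297 against 49.9, 52.3, 48.1 and 47.9 CPM, and Kcna3 and Kcnh2 were among the other 3. Of the 4 Kcng and 3 Kcns silent subunits, Kcng1, Kcng2 and Kcns1 were higher in excitatory neurons and Kcng4 and Kcns3 in inhibitory neurons. With each nucleus reduced to 1000 UMIs, 10 of 32 genes were parted (9.37% of all genes).

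Parvalbumin and somatostatin neurons, the fast-spiking basket-type and the dendrite-targeting interneurons, were parted in 6 of 26 genes (23.1%), against 4.19% of all 12136 genes. Kcnh1, Kcna1, Kcnh7 and Kcnc1 were higher in parvalbumin neurons (1.84% of all genes), and Kcnd3 and Kcnh5 in somatostatin neurons (2.36%). Kcnh1, an EAG channel gene, stood at 116, 135, 125 and 107 CPM in parvalbumin and 25.9, 24.6, 21.2 and 18.0 CPM in somatostatin neurons. For Kcna1 the somatostatin level was 41.4, 39.0, 45.1 and 47.8 CPM, and for Kcnh7 it was 342, 463, 409 and 353 CPM. Kcnc1 stood at 179.7, 174, 187 and 192 CPM in somatostatin neurons. Kcnd3, for the A-type current, stood at 89.7, 111, 93.6 and 97.1 and 361, 353, 364 and 378 CPM, and Kcnh5 at 14.8, 16.3, 17.4 and 18.3 and 63.6, 43.2, 53.8 and 52.2 CPM. Kcnc2 did not reach the 2-fold gap, since its somatostatin level was also high. The median log2 difference over the 26 genes was -0.28, and 0.00 over all genes.

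**Figure D3:**
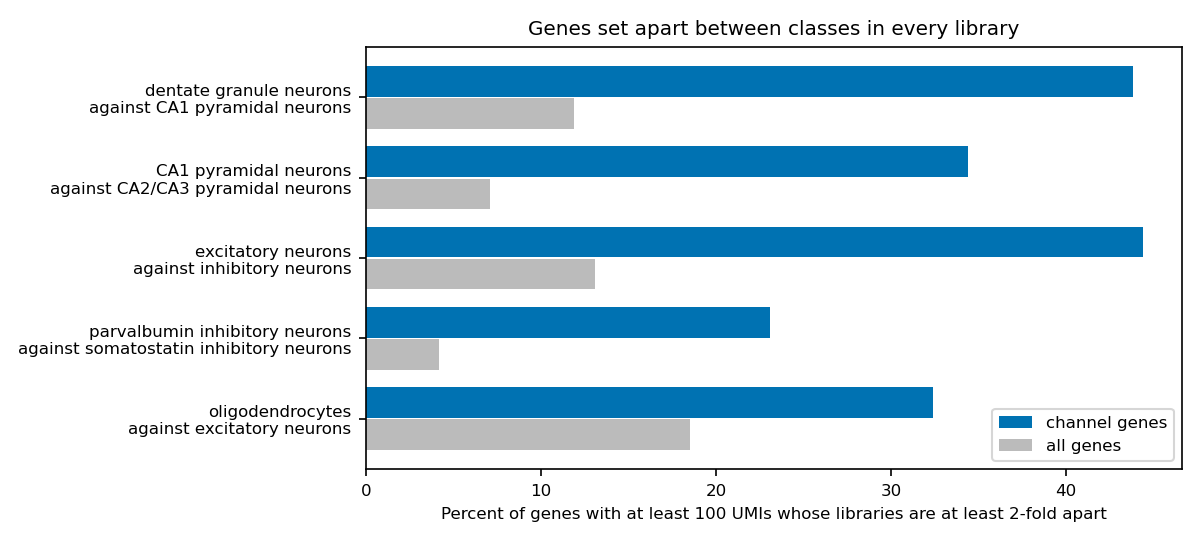
For 5 pairs of classes, the bars give the percentage of genes with at least 100 UMIs whose libraries lie at least 2-fold apart, for the channel genes (blue) and for all genes (grey), over 4 libraries (3 for oligodendrocytes). The blue bars reach 43.8%, 34.4%, 44.4%, 23.1% and 32.4%, from top to bottom, and the grey bars 11.9%, 7.08%, 13.1%, 4.19% and 18.5%.

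Oligodendrocytes, the myelin-forming glia, held 2 Kv1 genes above the neuronal level. They reached 50 nuclei in 3 libraries (349 in wild type, 1370 in the total and 57 in the neuron knockout), and 3 values below follow that order. Kcna1 stood at 237, 305 and 185 CPM in oligodendrocytes and Kcna6 at 174, 192 and 112 CPM, against 60.0 to 66.2 and 15.8 to 20.9 CPM in excitatory neurons. No oligodendrocyte library of either gene overlapped an excitatory one. In all, 11 of 34 genes (32.4%) were parted, against 18.5% of all 16443 genes, with 2 higher in oligodendrocytes (12.2% of all genes) and 9 in excitatory neurons (6.26%). Of these, Kcnc2 stood at 23.1, 17.3 and 4.88 CPM in oligodendrocytes, and Kcnh3 at 4.41, 2.54 and 0 CPM. Kcnq5 stood at 34.2, 37.1 and 503 CPM. The neuron knockout library was highest for Kcnq5. Its 57 nuclei also held the most excitatory marker RNA, with all 8 markers of the excitatory list summing to 147, 39.6 and 415 CPM in the 3 libraries. Its part in these levels was not tested. Without that library 27 of 34 genes were parted (33.0% of all genes). The median log2 difference was -2.30 over the 34 genes and 0.30 over all genes.

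The partners of these channels, 16 genes for beta subunits, KChIPs, DPP-like proteins and clustering proteins, also included genes parted between classes. Of 15 with at least 100 UMIs, 3 (20.0%, against 11.9% of all genes) were parted between dentate granule and CA1 neurons, 2 (13.3%, against 7.08%) between CA1 and CA2/CA3 and 5 (33.3%, against 13.1%) between excitatory and inhibitory neurons. Between parvalbumin and somatostatin neurons 3 were (20.0%, against 4.19%), and between oligodendrocytes and excitatory neurons 7 (46.7%, against 18.5%). Cntnap2, which clusters Kv1 channels at the axon, stood at 298, 274, 389.8 and 329 CPM in dentate granule neurons and 8219, 6944, 7666 and 7729.6 CPM in CA1. Lgi1, a secreted Kv1-associated protein, stood at 364 to 386 CPM in dentate granule and 119 to 148 CPM in CA1 neurons. Kcnab1, a Kv1 beta subunit gene, stood at 752 to 947 CPM in CA1 and 269 to 310.3 CPM in CA2/CA3. Among the KChIPs, the calcium-binding partners of Kv4, Kcnip1 stood at 361, 500.3, 436 and 469 CPM in inhibitory and 25.7, 31.6, 28.2 and 33.0 CPM in excitatory neurons. Kcnip3 ran the other way, with 148 to 178 CPM in excitatory and 10.4 to 17.2 CPM in inhibitory neurons. Kcnip4 did so as well (10229.9 to 10764 and 2105 to 3192 CPM). Kcnip2 was a parvalbumin gene among interneurons, with 124 to 133 CPM there and 16.8 to 22.2 CPM in somatostatin neurons. Of the 30 other potassium channel genes (inward rectifier, K2P, calcium- and sodium-activated), 8 of 23, 5 of 22, 10 of 24, 3 of 20 and 11 of 24 were parted in the 5 pairs, in the order above. Those are shares of 34.8%, 22.7%, 41.7%, 15.0% and 45.8%, against the same shares of all genes.

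The knockout libraries were compared with wild type within dentate granule, CA1 and inhibitory neurons, the question being whether loss of MAGL goes with other channel levels. All 3 ratios of a class share the same wild-type library. A ratio counts as past the threshold at 1.5-fold, either way, in genes whose 4 libraries held 100 UMIs or more in the class, and the background is the share of all such genes past it. Most channel genes stayed within 1.5-fold of wild type in each library and class. In dentate granule neurons, 1 of 29 genes was past 1.5-fold in the library labelled total knockout (background 7.36%), 3 of 29 in that labelled astrocyte knockout (7.15%) and 2 of 29 in that labelled neuron knockout (6.60%). In CA1 neurons the counts were 2 of 27 (8.14%), 0 of 27 (5.27%) and 0 of 27 (6.83%), and in male nuclei alone 5 of 26 (7.94%), 4 of 26 (7.41%) and 1 of 26 (7.53%). In inhibitory neurons they were 1 of 30 (7.34%), 6 of 30 (7.11%) and 0 of 30 (7.05%). The share of channel genes lay above the background for the library labelled astrocyte knockout in inhibitory (20.0%) and dentate granule neurons (10.3%), near it for that labelled neuron knockout in dentate granule neurons (6.90%), and below it elsewhere, with nuclei of both sexes. Median log2 ratios over the genes tested were 0.08, 0.13 and 0.11 in dentate granule neurons, 0.11, 0.11 and 0.07 in CA1, and 0.03, 0.03 and -0.03 in inhibitory neurons. Over all genes they ran from -0.06 to -0.02.

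**Figure D4:**
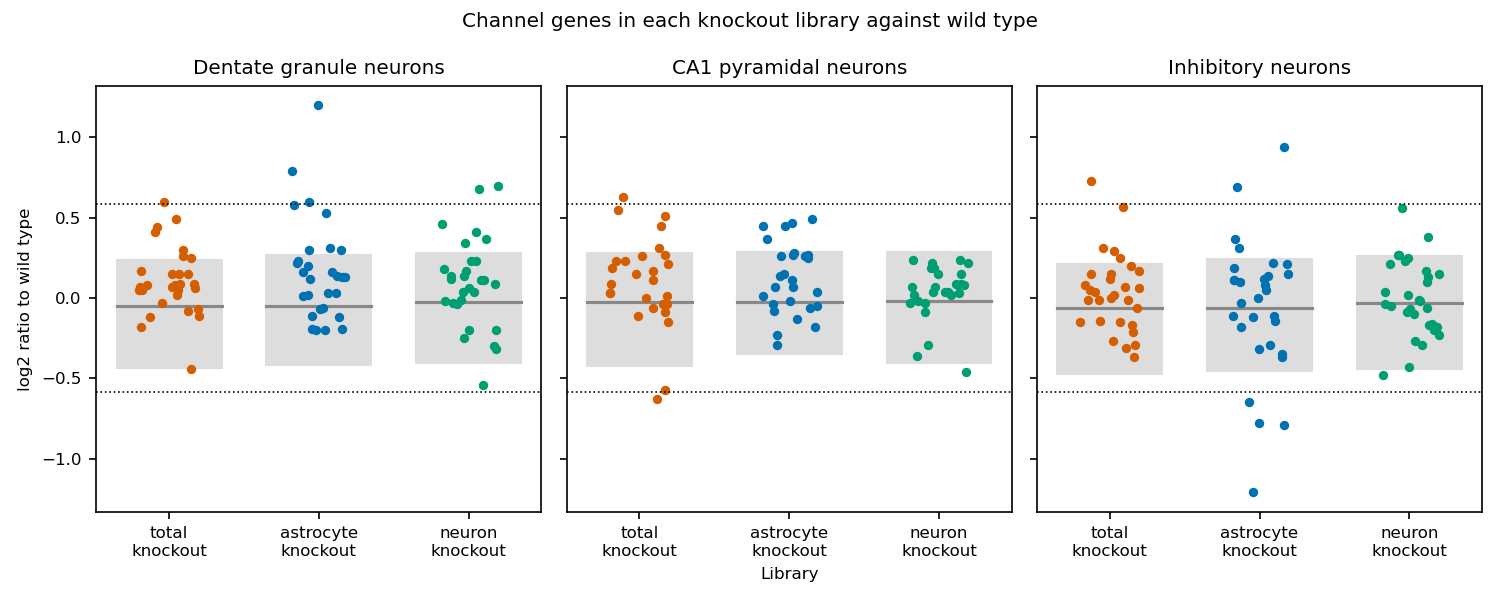
Each point is 1 channel gene with at least 100 UMIs in the class, as the log2 ratio of the library on the x axis to wild type; grey boxes span the 10th to 90th percentile of all genes with a line at their median, and dotted lines mark 1.5-fold. Most points lie inside or just above the grey boxes, and the widest spread is that of inhibitory neurons of the astrocyte knockout library, from Kcnf1 at -1.21 to Kcnh8 at 0.94.

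In dentate granule neurons the genes past 1.5-fold were all higher than wild type, 1, 3 and 2 of 29 in the total, astrocyte and neuron knockouts. Of all genes, 1.61%, 2.49% and 2.12% were past it on the higher side and 5.75%, 4.66% and 4.48% on the lower side. Kcnh4, the ELK gene, had a log2 ratio of 0.60 (95% interval 0.23 to 0.99) in the library labelled total knockout and a log2 ratio of 0.70 (95% interval 0.30 to 1.11) in that labelled neuron knockout, from 91, 171, 118 and 122 UMIs. In the library labelled astrocyte knockout it had a log2 ratio of 0.58 (95% interval 0.17 to 0.99), so wild type was the lowest of the 4. Kcnc2 had a log2 ratio of 1.20 (95% interval 0.85 to 1.56) in the library labelled astrocyte knockout and a log2 ratio of 0.68 (95% interval 0.29 to 1.07) in that labelled neuron knockout, from 101, 154, 202 and 133 UMIs. Its level in dentate granule neurons reached at most 14.2 CPM, under that in the other 7 neuron classes, and wild type was again lowest. Kcnq5 had a log2 ratio of 0.60 (95% interval 0.45 to 0.74) in the library labelled astrocyte knockout. Sums of the markers of other classes within dentate granule nuclei also differed by library. They do not tell RNA of those classes from expression by the granule nuclei themselves. The 8 general inhibitory markers summed to 75.8, 96.2, 87.6 and 91.1 CPM there, the 6 Vip markers to 6.39, 11.0, 22.2 and 12.2 CPM, and the 10 CA2/CA3 markers to 384, 411, 452 and 444 CPM. Other lists were lowest in the astrocyte knockout, the 7 CCK markers at 2233, 2279.8, 1698 and 2003 CPM and the 7 CA1 markers at 272, 307, 189 and 282 CPM. None of these markers was at 0 in all libraries, and their part in the ratios was not tested. The class is made of 2 clusters, and the shallower of them held 28.8%, 52.1%, 39.5% and 38.5% of its nuclei. In the larger cluster alone, 0 genes were past 1.5-fold in the library labelled total knockout. With nuclei thinned to 1000 UMIs, 0 of 23 genes were past 1.5-fold in the libraries labelled astrocyte and neuron knockout. Thinning leaves fewer UMIs, so genes as sparse as Kcnh4 and Kcnc2 can fall under the fixed minimum. The count of 0 cannot decide about such genes. With doublets kept, the Kcnc2 ratio was 2.02 in the library labelled astrocyte knockout. In male nuclei alone the Kcnc2 ratio was 1.21 in that labelled neuron knockout.

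In CA1 neurons, Kcng1 and Kcng2, both silent subunits of Kv2, differed from wild type in opposite directions in the library labelled total knockout. Kcng1 stood at 11.4, 17.7, 14.8 and 11.6 CPM and had a log2 ratio of 0.63 (95% interval 0.34 to 0.94). Kcng2 stood at 19.2, 12.4, 16.3 and 13.9 CPM and had a log2 ratio of -0.63 (95% interval -0.91 to -0.34). For both genes that library and wild type lay at the opposite ends of the range. Markers of other classes within CA1 nuclei also differed by library. The 14 subicular or cortical markers summed to 596, 740.2, 722 and 594 CPM, the 8 general inhibitory markers to 4.73, 25.3, 7.60 and 10.6 CPM, the 10 oligodendrocyte markers to 58.8, 93.7, 60.8 and 72.2 CPM and the 7 CCK markers to 674, 477, 598 and 601 CPM, with no marker at 0 in all libraries. Subicular or cortical neurons themselves held Kcng1 at 21.8 to 27.0 CPM and Kcng2 at 4.54 to 5.04 CPM. The part of these markers in both ratios was not tested. Kcng1 had a log2 ratio of 0.29 when nuclei were gated on markers without clusters and 1.25 in male nuclei alone, and the total knockout library held only 3 nuclei called female. Of all genes in CA1, 2.73%, 2.42% and 2.28% were past 1.5-fold on the higher side in the total, astrocyte and neuron knockouts and 5.41%, 2.85% and 4.55% on the lower side. Kcnd2, Kcnh7, Kcnq3 and Kcnq5, which had most UMIs in CA1, had log2 ratios between -0.29 and 0.27 in all 3 libraries.

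Inhibitory neurons of the library labelled astrocyte knockout were the exception, with 6 of 30 genes past 1.5-fold, 2 higher (1.44% of all genes) and 4 lower (5.67%). In the total knockout 1.13% of all genes were past it on the higher and 6.22% on the lower side, and in the neuron knockout 1.56% and 5.49%. The lower ones were led by Kcnf1, a silent subunit, with 60, 103, 23 and 66 UMIs, 6.32, 6.56, 2.66 and 5.59 CPM and a log2 ratio of -1.21 (95% interval -2.01 to -0.54). Kcnd1, of the A-type family, stood at 7.06, 5.79, 4.05 and 5.25 CPM and had a log2 ratio of -0.78 (95% interval -1.44 to -0.19). Kcna4 stood at 11.5, 10.4, 7.28 and 9.40 CPM, with a log2 ratio of -0.65 (95% interval -1.13 to -0.20). Kcnh6 had a log2 ratio of -0.79 (95% interval -1.71 to 0.01), which includes 0. Kcnh8 and Kcnq1 were higher. Kcnh8 had 23, 65, 41 and 43 UMIs, with a log2 ratio of 0.94 (95% interval 0.20 to 1.77), and in the library labelled total knockout it had a log2 ratio of 0.73 (95% interval 0.07 to 1.53). The latter was 1.60 with doublets kept and 2.19 with gated nuclei. Kcnq1 had 31, 52, 46 and 47 UMIs and a log2 ratio of 0.69 (95% interval 0.01 to 1.41). These 6 genes held between 23 and 109 UMIs in wild-type inhibitory neurons. With nuclei thinned to 1000 UMIs, 0 of the genes that still held 100 UMIs were past 1.5-fold. Thinning leaves fewer UMIs, so genes as sparse as these 6 can fall under that minimum, and the count cannot decide about them. Kcnq1 and Kcnd1 changed sign in that setting (-0.74 and 0.71), on fewer UMIs still. The makeup of the class differed as well. Vip neurons gave 12.7%, 14.3%, 6.69% and 6.88% of its UMIs and CCK neurons 17.6%, 17.8%, 23.3% and 26.0%, and the 6 Vip markers summed to 531, 419.8, 209 and 275 CPM. The 10 oligodendrocyte markers summed to 60.8, 40.7, 18.7 and 37.6 CPM in the class. The part of these differences in the ratios was not tested. Within somatostatin neurons alone Kcnf1 stood at 8.22, 7.65, 2.66 and 10.3 CPM, and within Vip neurons at 13.2, 15.1, 15.6 and 9.85 CPM. The library labelled astrocyte knockout was thus lowest in the first and not in the second. Its 23 Kcnf1 UMIs are spread over the classes of inhibitory neurons, so both orders rest on few UMIs.

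CA2/CA3 neurons, added after the other classes were seen, had 1 of 29 genes past 1.5-fold in the libraries labelled total (background 7.68%) and astrocyte knockout (4.10%) and 0 of 29 in that labelled neuron knockout (7.26%). Of all genes, 2.05%, 1.53% and 2.59% were past 1.5-fold on the higher side in these 3 libraries and 5.63%, 2.58% and 4.67% on the lower side. The gene was Kcnh8 both times, with a log2 ratio of 0.83 (95% interval 0.25 to 1.47) and a log2 ratio of 0.97 (95% interval 0.42 to 1.59). Within CA2/CA3 nuclei the 14 subicular or cortical markers summed to 2454, 2378, 2769 and 2289 CPM. The 8 general inhibitory markers summed to 13.9, 31.8, 12.3 and 26.2 CPM. Their part in the Kcnh8 ratios was not tested. Of the partner genes, 0, 1 and 0 of 14 were past 1.5-fold in dentate granule neurons of the total, astrocyte and neuron knockouts. In CA1 neurons 2, 2 and 1 of 15 were, in inhibitory neurons 0, 1 and 1 of 15, and in CA2/CA3 neurons 0, 0 and 1 of 13. The shares of all genes are given above. The CA2/CA3 gene was Amigo1, with a log2 ratio of 0.59 (95% interval 0.08 to 1.12). Dpp10, which speeds Kv4 inactivation, stood at 39.7, 36.4, 116 and 48.2 CPM in dentate granule neurons. It had a log2 ratio of 1.55 (95% interval 1.42 to 1.68) there in the library labelled astrocyte knockout. In CA1 it stood at 175, 296, 277 and 171 CPM. Kcnip1, the inhibitory KChIP gene, stood at 1.63, 5.80, 5.79 and 1.63 CPM in CA1, from 20, 87, 96 and 21 UMIs. Of the marker sums in CA1 given above, that of the subicular or cortical list was, like Kcnip1 and Dpp10, higher in the total and astrocyte knockouts than in wild type and the neuron knockout. Subicular or cortical neurons held Kcnip1 at 80.8 to 113 CPM and Dpp10 at 8363 to 9937 CPM, and the part of such RNA in the CA1 levels was not tested. Kcnip3 was lower than wild type in inhibitory neurons of the libraries labelled astrocyte and neuron knockout, at 17.0, 17.2, 10.4 and 10.5 CPM, with a log2 ratio of -0.70 (95% interval -1.09 to -0.33) and a log2 ratio of -0.69 (95% interval -1.04 to -0.35). Vip neurons, which held the most Kcnip3 of the inhibitory classes (33, 72, 14 and 22 UMIs, and 24.2 CPM in the lowest library), gave a smaller share of the class in those 2 libraries, as given above. Within somatostatin neurons Kcnip3 stood at 15.5, 16.2, 11.6 and 9.86 CPM and within parvalbumin neurons at 14.2, 14.5, 5.58 and 9.82 CPM. The part of the Vip share in the Kcnip3 ratios was not tested.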

How the data were processed

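RNA of nuclei from mouse hippocampus was measured in 4 libraries, 1 per genotype, built with a 10x Genomics kit for chromatin and RNA of the same nuclei, per the labels' protocols. The deposited values are whole-number counts of UMIs for each gene in each barcode, not normalized, and the submitters' processing notes name Cell Ranger ARC 2.0.0 and mm10. How strand and introns were handled, and with which annotation, was not stated in any source at hand. Barcodes in these files held between 400 and 5998 detected genes.

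Nuclei with at least 500 genes and at most 5% mitochondrial UMIs were kept. Doublets were called per library with Scrublet in scanpy 1.11.5, at 0.8% per 1000 barcodes, and removed, which left 51319 nuclei. Counts were scaled to 10000 UMIs and log-transformed. From 2000 variable genes, without sex, mitochondrial, potassium channel and partner genes and Mgll, 30 principal components and 15 neighbours (scikit-learn 1.9.0) gave 50 Leiden clusters (resolution 1, igraph 0.11.9 and leidenalg 0.10.2). A name needed 3 markers from 1 of 25 lists, each in at least 10% of nuclei and 2-fold above other nuclei, and no more markers of another class among the 10 leading genes. The naming rule was revised after the clusters were seen. Under it, clusters of 1042 and 1040 nuclei with mixed markers became general excitatory neurons. Glial or vascular clusters with 50% or more of the pan-neuronal level stayed unnamed. A cluster of 1447 nuclei was named general excitatory neurons from 3 of the 8 general excitatory markers. Unnamed nuclei numbered 988, 3429, 1252 and 1024 in wild type, total, astrocyte and neuron knockout. Excitatory neurons comprise dentate granule, CA1, CA2/CA3, subicular or cortical, mossy and general excitatory nuclei, and inhibitory neurons the parvalbumin, somatostatin, Vip and CCK classes. Unnamed clusters of 752 and 404 nuclei each had 8 of 8 general inhibitory and 5 of 7 Lamp5 markers. An unnamed cluster of 926 nuclei had 7 of 8 general inhibitory markers. These clusters are in no class and not in the inhibitory pool.

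For each class in each library the UMIs were added up and given as CPM. Log2 ratios to wild type used a pseudocount of 1 count and carry exact conditional binomial 95% intervals. Intervals and the limit set by 3 counts cover counting error only. The calling steps were tested on simulated data. No p-values were computed. Motifs and promoter windows came from RefSeq, and gene coordinates from GENCODE M21 (GRCm38). Values in all 4 libraries were given by a rule: per class pair, the 4 parted genes with the largest gap on either side; per knockout and class, the 2 highest and 2 lowest ratios past 1.5-fold whose interval leaves out 0; and the 2 genes with most UMIs in each of the 6 largest classes. Other genes named with values, such as Kcnh6, were chosen after their values were seen. Alternatives kept doublets, took male nuclei, marker gates, thinned nuclei (88, 801, 65 and 105 nuclei left out as under 1000 UMIs, in the order above), other minimums and folds, the median ratio set to 0, and left out 1 library. The members, lists and rule were chosen with earlier results of these data known. Some of the genes are counted but not reported singly here.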

Additional observations from a re-analysis of the deposited data

How the results depend on the processing

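Counts of genes past 1.5-fold rest on few genes and moved with most choices, while fewer of the class differences moved. Where a count moved by over 1.5 times it is given here, and the cause was not tested. For most of these settings the share of all genes is not given. Such a count shows only how far the number moved, not how the channel genes stood beside all genes. Another fold or minimum, and thinning with a fixed minimum, change by construction how many genes can count. With doublets kept, 4 genes were past 1.5-fold in dentate granule, CA1 and inhibitory neurons each of the total knockout and 3 in inhibitory neurons of the neuron knockout. In male nuclei alone, there were 5, 4 and 1 in CA1 of the total, astrocyte and neuron knockouts, 3 in inhibitory neurons of the neuron knockout, and 23 genes parted between oligodendrocytes and excitatory neurons. With nuclei gated on markers, the total knockout had 0 in dentate granule, 1 in CA1 and 3 in inhibitory neurons, the neuron knockout had 4 in dentate granule and 2 in inhibitory neurons, and 7 genes were parted between CA1 and CA2/CA3 and 7 between oligodendrocytes and excitatory neurons. Thinned to 1000 UMIs, CA1 and inhibitory neurons of the total knockout had 1 and 0, dentate granule, CA1 and inhibitory neurons of the astrocyte knockout 0, 1 and 0, and dentate granule and inhibitory neurons of the neuron knockout 0 and 1, with 7 genes parted between CA1 and CA2/CA3 and 10 between excitatory and inhibitory neurons. In that setting Kcnq1 (-0.74) and Kcnd1 (0.71) reversed in inhibitory neurons of the astrocyte knockout. With the median ratio set to 0, inhibitory neurons of the total and neuron knockouts had 2 and 1. With a minimum of 20 UMIs, the dentate granule counts were 4, 7 and 5 in the total, astrocyte and neuron knockouts, that of inhibitory neurons 4 in the total knockout, and those of CA1 and inhibitory neurons 2 and 2 in the neuron knockout. With no minimum they were 4, 7 and 6, then 5, then 6 and 2, and 3 in CA1 of the astrocyte knockout. At 2-fold, they were 0, 1 and 0 in dentate granule neurons, 0 in CA1 of the total knockout, and 0 and 1 in inhibitory neurons of the total and astrocyte knockouts. In the largest cluster alone, chosen after seeing the data, they were 0 in dentate granule neurons of the total knockout and 1, 3 and 1 in CA1 of the total, astrocyte and neuron knockouts. At 1.5-fold, 25 genes were parted between excitatory and inhibitory neurons and 10 between parvalbumin and somatostatin neurons. Leaving out 1 library at a time gave 14 to 15 parted genes for dentate granule against CA1 neurons, 11 in each case for CA1 against CA2/CA3, 15 to 17 for excitatory against inhibitory, 7 to 8 for parvalbumin against somatostatin neurons, and 11 to 27 for oligodendrocytes, where leaving out the neuron knockout gave 27. Of single ratios, Kcnh8 in inhibitory neurons of the total knockout reached 1.60 with doublets kept, 2.19 gated and 2.42 thinned, and Kcnh8 in the astrocyte knockout 1.84 thinned. Both thinned values rest on 0 wild-type UMIs and thus on the pseudocount. Kcng1 in CA1 of the total knockout was 1.22 thinned, and Kcnc2 in dentate granule neurons of the neuron knockout 1.21 in male nuclei. With 1 library per genotype, no replicate can be left out of a ratio to wild type, and no paired analysis was possible because each group holds 1 library. Depth limits the genes near the minimum of 100 UMIs. Protein sequences of the members were planned and are not used here.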

Other observations

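Several classes reached 50 nuclei in 1 or 2 libraries only, and their levels are values of those libraries with exact Poisson 95% intervals for counting error. Oligodendrocyte precursors held Kcnh8, an ELK channel gene, at 364 CPM (332 to 399) in wild type and 362 CPM (335 to 392) in the total knockout, whereas mature oligodendrocytes held it at 0 to 4.41 CPM in 3 libraries. Kcnd2 stood at 4351 and 4437 CPM in the precursors. Nuclei named thalamic excitatory neurons, 152 in the total knockout, held Kcnc2 at 3968 CPM (3839.9 to 4099) and Kcnh1 at 2.18 CPM (0.263 to 7.86). Medium spiny neurons, 738 nuclei of the same library, held Kcnh4 at 80.4 CPM (305 UMIs), against at most 9.02 CPM in the 8 neuron classes with 50 nuclei in all 4 libraries, and Kcnd2 at 7663 CPM (7576 to 7752).

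Nuclei named Cajal-Retzius cells, early-born neurons of the outer layer, held Kcnq3 at 95.6 CPM (70.0 to 128) in wild type. In the total knockout they held it at 146 CPM (120.4 to 175). Both lay below the 278 CPM that was the lowest library of the 8 neuron classes. The class joins a cluster with 6 of 6 markers and a deeper cluster with 3 of 6, not Reln or Trp73 (medians of 1687 and 4096 UMIs). Their Kcnq3 levels were not separated. Choroid plexus epithelium, 102 nuclei of the wild-type library, held Kcnh1 at 479 CPM (419 to 545), against at most 249 CPM in any library of those classes. Mossy cells held Kcnh5, an EAG gene, at 189 and 176 CPM in the total and astrocyte knockouts, against at most 142 CPM in the 8 classes. The level was not particular to mossy cells. In wild type and the total knockout, oligodendrocyte precursors held Kcnh5 at 178 and 208 CPM and Cajal-Retzius cells at 193 and 123 CPM.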
